A study of Mus musculus with 6 samples.

Results

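The genes described here encode the ligand subunits of the interleukin-12 (IL-12) family and the ligands and receptor chains of the IL-10 and IL-15 axes. They were taken as a list of 10 genes out of 35865 genes measured: Il10, Il10ra, Il10rb, Il15, Il15ra, Ebi3, Il27, Il12a, Il12b and Il23a. Their level was the sum over the transcripts that carry each symbol in the GENCODE M21 annotation. The list was set by gene symbol, without a cutoff on measured values, but with earlier results of these data known. RNA was sequenced, as paired-end reads, from cardiac macrophages sorted from digested hearts of C57BL/6J mice. The macrophages derived from donor haematopoietic progenitor cells that were Tet2 KO (written Tet2-/- in the design text, 3 libraries) or Tet2 WT (Tet2+/+, 3 libraries), and the question is which transcript levels separate the genotypes. The study's title places them in recipients that were not conditioned, a setting in which the host keeps blood cells of its own. The age of the mice, the sort gate, the means of separating donor from host cells, the part of Tet2 that was deleted and any Cre driver are not stated in the sources used here. Nothing in the labels says whether the 3 libraries per genotype are from different animals, so a p-value here reflects the spread among the libraries at hand, which may be technical.

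Cytokines of the IL-12 family are dimers that draw on a few shared subunits. The Il12b product pairs with that of Il12a in IL-12 and with that of Il23a in IL-23, and the Ebi3 product pairs with that of Il27 in IL-27 and with that of Il12a in IL-35. IL-10 restrains inflammatory gene expression in macrophages through the ligand-binding chain Il10ra and the shared chain Il10rb, and IL-15 is held on the cell surface by Il15ra and shown from there to lymphocytes. Macrophages are known both as a source and as a target of IL-10, and Tet2 encodes an enzyme that oxidises methylated cytosine in DNA.

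Both IL-10 receptor chains and the IL-12 family subunit Ebi3 were higher in Tet2 KO than in Tet2 WT libraries, as counts per 1000000 counts (CPM, scaled by the TMM factors of edgeR), but not when the libraries were scaled to pan-macrophage markers, where Il10rb changed sign. The folds were 1.82 for Il10ra, 1.70 for Ebi3 and 1.41 for Il10rb. The IL-10 ligand gene itself, Il15, Il15ra, Il27, Il12a and Il23a did not pass the test, and Il12b was too low to be tested. Of the 9 tested genes of the list, 3 (33.3%) were called higher at an edgeR adjusted p under 0.05 and 0 were called lower. Over all 16386 tested genes the shares were 6.11% higher and 10.1% lower, 16.2% in all. The CPM of the genotypes did not overlap in 5 of the 9 genes (55.6%), against 34.5% of all tested genes. The median log2 fold change, Tet2 KO over Tet2 WT, was 0.32 over the 9 genes and 0.00 over all tested genes.

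The libraries held 37349505 to 55771087 estimated counts in Tet2 KO and 49883028 to 53586473 in Tet2 WT. Summed over 16 pan-macrophage markers, the CPM (here per library total) ran from 33113 to 38971 in Tet2 KO and from 21248 to 28778 in Tet2 WT. Of these markers 13 were called higher, 0 lower, and their median log2 fold change was 0.71. Over 18 fibroblast markers the sum ran from 2275 to 4236 CPM in Tet2 KO and from 17084 to 31929 CPM in Tet2 WT, and all 18 were called lower (median log2 fold change -3.01). None of the markers in these 2 lists was at 0, and the fibroblast sums of the genotypes did not overlap. T and NK cell markers summed to 3.81 to 5.99 CPM in Tet2 KO and 6.15 to 6.99 CPM in Tet2 WT, with Trbc2 and Ncr1 at 0 in every library. B cell markers summed to 580 to 1007 CPM in Tet2 KO and 467 to 595 CPM in Tet2 WT, most of it Ighm. Of the 7 that could be tested, 3 were called higher (Ighm, Cd79b and Bank1) and 0 lower. Neutrophil markers summed to 59.9 to 68.0 CPM in Tet2 KO and 39.1 to 53.1 CPM in Tet2 WT, most of it Csf3r. Of these 9 markers 7 were under 1 CPM in every library, and of the 2 tested, 1 was called higher (Csf3r) and 0 lower. Endothelial markers summed to 156 to 225 CPM in Tet2 KO and 222 to 411 CPM in Tet2 WT. Of these 10 markers 0 were called higher and 2 lower, and their median log2 fold change was 0.16. The 2 were Tek (mean TMM-scaled CPM 15.9 in Tet2 KO, 95.8 in Tet2 WT) and Ly6c1 (33.0 and 65.5). Cardiomyocyte markers summed to 91.3 to 150 CPM in Tet2 KO and 116 to 135 CPM in Tet2 WT. Mural markers summed to 35.1 to 65.6 CPM in Tet2 KO and 130 to 210 CPM in Tet2 WT, with 2 of 9 called lower, Pdgfrb and Abcc9. Tet2 itself stood at 33.7, 27.7 and 29.1 transcripts per 1000000 (TPM) in the Tet2 KO libraries, against 23.3, 26.1 and 24.6 TPM in Tet2 WT, a log2 fold change of 0.32 ± 0.14 (SE; edgeR adjusted p = 0.159). With the deleted part unknown, the summed level of Tet2 does not test the labels.

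The 10 genes spanned more than 3 orders of magnitude in TPM, a scale per transcript length on which genes can be set beside each other. By the median over the 6 libraries the order was Il10rb at 263 TPM, Il10ra at 145, Il15 at 71.7, Ebi3 at 50.5, Il15ra at 13.02, Il10 at 6.17, Il27 at 2.87, Il12a at 0.871, Il23a at 0.356 and Il12b at 0.0528 TPM. Over the 6 libraries, the range of Il10rb lay wholly above that of Il10ra, and the range of Ebi3 above that of Il15ra. The ranges of all other neighbours in this order overlapped. Within each library the order of neighbours held, except for Il12a and Il23a in Tet2 KO replicate 2 (0.109 against 0.494 TPM). The receptor chains of IL-10 were thus the most abundant members, and Il12a, Il23a and Il12b, the subunits of IL-12 and IL-23, the least. These sums count coding and non-coding transcripts. Protein-coding transcripts held 46.1% to 55.8% of the Il15 TPM and 100% of the Ebi3 TPM, so the sums do not rank the coding transcripts.

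**Figure D1:**
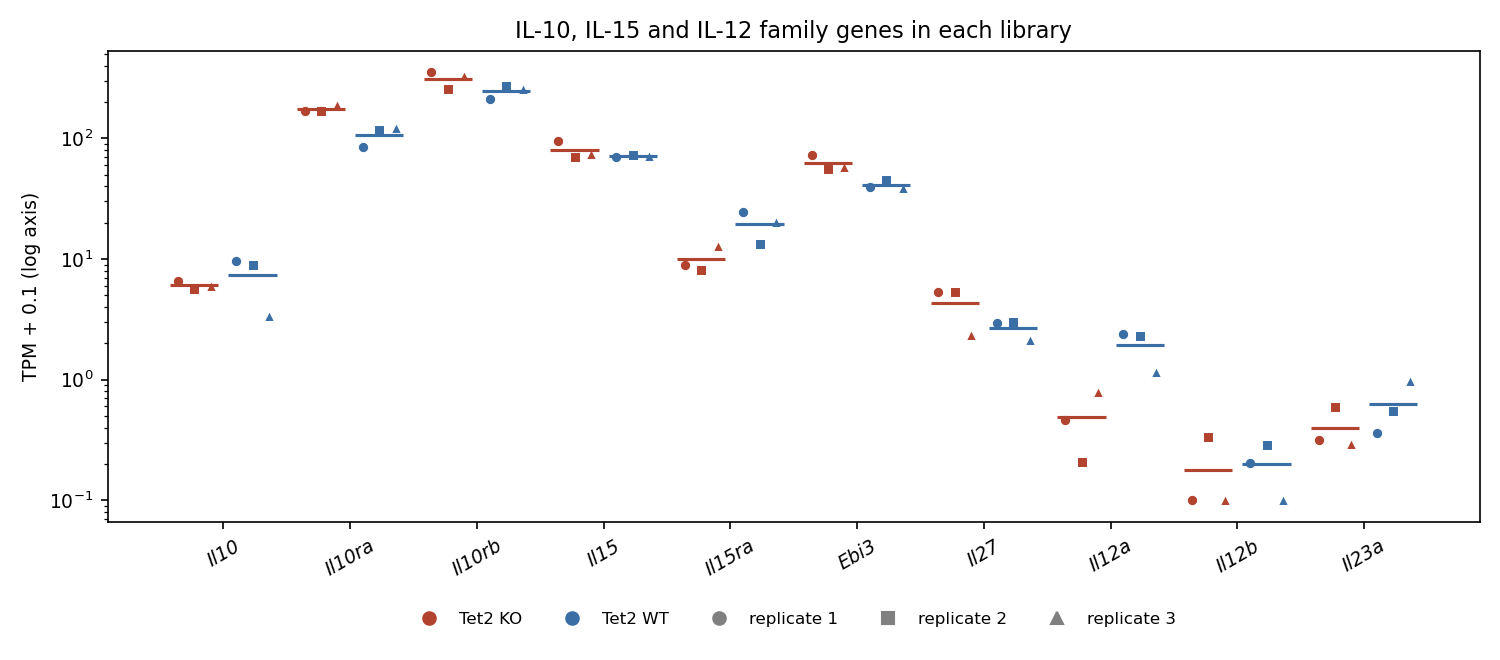
Summed TPM of each gene plus 0.1 (vertical axis, log scale) in the 3 Tet2 KO and 3 Tet2 WT libraries, with a point for each library and a bar at the mean of the genotype. Ebi3 and Il10ra lie higher in every Tet2 KO library than in any Tet2 WT library, Il12a and Il15ra lie lower, and Il12b is at 0 TPM in 3 libraries.

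In the IL-10 axis the receptor chains were called higher under TMM scaling, but not under scaling to the pan-macrophage markers. The ligand did not pass the test. Il10 (ENSMUSG00000016529.5; GRCm38 chromosome 1, 131019845 to 131024974, plus strand), the ligand gene, stood at 6.47, 5.53 and 5.87 TPM in the Tet2 KO libraries, against 9.54, 8.77 and 3.29 TPM in Tet2 WT. The Tet2 KO libraries lay close together, inside the spread of the Tet2 WT libraries, of which the third was the lowest of the 6 and the other 2 the highest. Its log2 fold change was -0.13 ± 0.39 (SE), with a 95% interval of -1.0 to 0.75 and an edgeR adjusted p of 0.874. The sign depended on the Tet2 WT libraries: the log2 fold change was 0.14 without Tet2 WT replicate 1, 0.07 without replicate 2 and -0.47 without replicate 3, none past the threshold.

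Il10ra (ENSMUSG00000032089.16; chromosome 9, 45253837 to 45269149, minus strand) encodes the chain that binds IL-10. It stood at 167, 167 and 190 TPM in the Tet2 KO libraries, against 83.9, 116 and 122 TPM in Tet2 WT. Every Tet2 KO library lay above every Tet2 WT library, and the lowest value was that of Tet2 WT replicate 1. In CPM it averaged 458 ± 29.4 in Tet2 KO and 251 ± 45.2 in Tet2 WT (SD, n = 3 each). The log2 fold change was 0.87 ± 0.16 (SE; 95% interval 0.52 to 1.21; edgeR adjusted p = 0.00487), and it passed the threshold with any of the 6 libraries left out, with edgeR adjusted p from 0.00720 to 0.0280.

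Il10rb (ENSMUSG00000022969.13; chromosome 16, 91406164 to 91425834, plus strand) encodes the other IL-10 receptor chain, which is shared with the receptors for IL-22 and lambda interferon. It stood at 353, 258 and 327 TPM in the Tet2 KO libraries, against 213, 269 and 258 TPM in Tet2 WT. In TPM the genotypes overlapped, with Tet2 KO replicate 2 below Tet2 WT replicate 2, whereas in TMM-scaled CPM they did not: 450, 347 and 417 CPM in Tet2 KO, against 251, 319 and 288 CPM in Tet2 WT. The log2 fold change was 0.50 ± 0.15 (SE), with an edgeR adjusted p of 0.0466. Leaving out a library ended this call in 4 of 6 cases: without Tet2 KO replicate 1 (edgeR adjusted p = 0.136), without Tet2 KO replicate 3 (0.153), without Tet2 WT replicate 1 (0.143) and without Tet2 WT replicate 3 (0.110), at log2 fold changes of 0.42 to 0.52. With the replicate number as a block the edgeR adjusted p was 0.0983, and with limma on log2(TPM + 1) it was 0.214 at a log2 fold change of 0.34. A readthrough gene, Gm21970 (chromosome 16, 91391721 to 91419451, plus strand), overlaps Il10rb. It was listed at 0.837 to 2.29 TPM in Tet2 KO and 0.858 to 1.39 TPM in Tet2 WT, and the division of shared reads between them rests on kallisto's model.

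Set against each other within a library, the binding chain took a larger place in Tet2 KO. The ratio of Il10ra to Il10rb in TPM was 0.474, 0.649 and 0.580 in Tet2 KO and 0.393, 0.432 and 0.473 in Tet2 WT. These ranges did not overlap, although the lowest Tet2 KO ratio and the highest Tet2 WT ratio nearly met. The difference in log2 ratio (with 0.1 TPM added to each gene), Tet2 KO minus Tet2 WT, was 0.38, with an exact two-sided permutation p of 0.1, the smallest that 3 against 3 libraries allow.

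The rise of the receptor chains was measured in libraries whose macrophage markers were higher as well. Measured from the mean log2(CPM + 0.5) of its own library's 16 pan-macrophage markers, the difference in Il10ra, Tet2 KO minus Tet2 WT, was 0.19 ± 0.10 log2 units (SE, exact permutation p = 0.2). On the same scale Il10rb differed by -0.19 ± 0.10 (exact permutation p = 0.2), and the libraries of the genotypes overlapped for both chains. With the libraries scaled to these markers, which moved the median log2 fold change of all genes to -0.69, the edgeR log2 fold change was 0.19 for Il10ra (adjusted p = 0.325) and -0.20 for Il10rb (adjusted p = 0.252) beside that shift. In sorted cells measured in bulk, fewer cells of a type and less RNA per cell cannot be told apart.

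In the IL-15 axis neither gene passed the test, and ligand and presenting receptor chain had opposite signs under TMM scaling. Scaled to the pan-macrophage markers both were negative (Il15 -0.38, Il15ra -1.49). With the fibroblast marker sum as a covariate both were positive (0.34 and 0.80). Il15 (ENSMUSG00000031712.10; chromosome 8, 82331632 to 82403222, minus strand), which encodes the ligand, stood at 95.02, 70.4 and 73.6 TPM in the Tet2 KO libraries, against 69.8, 72.7 and 70.7 TPM in Tet2 WT. Apart from the high value of Tet2 KO replicate 1, the libraries lay within a few TPM of each other and the genotypes overlapped on this scale. In CPM they did not, at 51.8, 45.4 and 46.2 in Tet2 KO and 37.5, 40.5 and 36.9 in Tet2 WT. The log2 fold change was 0.32 ± 0.13 (SE; 95% interval 0.04 to 0.60; edgeR adjusted p = 0.122). Under scaling to the macrophage markers it was -0.38 (edgeR adjusted p = 0.109).

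Il15ra (ENSMUSG00000023206.16; chromosome 2, 11705290 to 11734317, plus strand), whose product binds IL-15 and presents it to neighbouring cells, stood at 8.83, 8.04 and 12.8 TPM in the Tet2 KO libraries, against 24.3, 13.2 and 20.3 TPM in Tet2 WT. All Tet2 KO libraries lay below all Tet2 WT libraries in TPM, with Tet2 KO replicate 3 just under Tet2 WT replicate 2. In TMM-scaled CPM those 2 libraries changed places, at 13.7 in Tet2 KO replicate 3 and 13.2 in Tet2 WT replicate 2. The log2 fold change was -0.75 ± 0.25 (SE; 95% interval -1.31 to -0.19), and the edgeR adjusted p of 0.0733 missed the threshold. It passed without Tet2 WT replicate 2 (-0.92, edgeR adjusted p = 0.0386), with DESeq2 (adjusted p = 0.0271) and with limma on log2(TPM + 1) (adjusted p = 0.0390). Without any other single library it missed the threshold (edgeR adjusted p 0.0531 to 0.296). The same held with the replicate number as a block (0.0814) and with voom (adjusted p = 0.0895). Without both replicates numbered 1 it was -0.44 (edgeR adjusted p = 0.478).

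The ratio of Il15ra to Il15 in TPM was 0.0929, 0.114 and 0.174 in Tet2 KO and 0.348, 0.182 and 0.286 in Tet2 WT. The genotypes did not overlap, by a narrow margin between Tet2 KO replicate 3 and Tet2 WT replicate 2. The difference in log2 ratio, Tet2 KO minus Tet2 WT, was -1.09 (exact permutation p = 0.1, the smallest possible). The fibroblast marker sum moved with this gene: in Tet2 WT both were highest in replicate 1 and lowest in replicate 2. In Tet2 KO the order differed, since Il15ra was highest in replicate 3 and the fibroblast sum in replicate 1. With the fibroblast sum as a covariate the log2 fold change of Il15ra was 0.80 (edgeR adjusted p = 0.726), and 0 genes were called in that fit, with 1503 at an unadjusted p under 0.05. The fibroblast sum separates the genotypes completely, so its part and that of the genotype cannot be told apart.

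**Figure D2:**
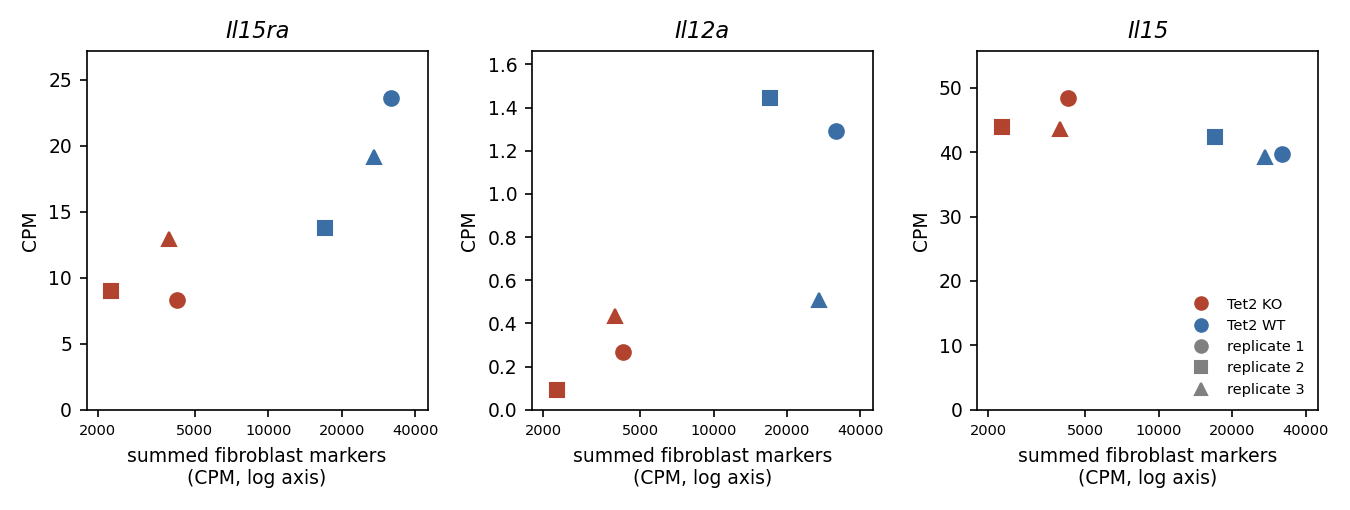
CPM per library total of Il15ra, Il12a and Il15 (vertical axes) against the summed CPM of 18 fibroblast markers (horizontal axes, log scale), with a point for each of the 3 Tet2 KO and 3 Tet2 WT libraries. The Tet2 KO libraries sit between 2275 and 4236 CPM of fibroblast markers and the Tet2 WT libraries between 17084 and 31929, with Il15ra and Il12a higher on the Tet2 WT side.

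In the IL-12 family the shared subunit Ebi3 was called higher under TMM scaling, while the other subunits were low and were not called. Ebi3 (ENSMUSG00000003206.7; chromosome 17, 55952640 to 55957022, plus strand), a soluble receptor-like protein that completes IL-27 and IL-35, stood at 72.9, 56.03 and 58.2 TPM in the Tet2 KO libraries, against 39.2, 44.9 and 38.7 TPM in Tet2 WT. Every Tet2 KO library lay above every Tet2 WT library. In CPM it averaged 48.1 ± 6.24 in Tet2 KO and 28.3 ± 3.24 in Tet2 WT (SD, n = 3 each), a log2 fold change of 0.76 ± 0.15 (SE; 95% interval 0.43 to 1.10; edgeR adjusted p = 0.00783). The call was kept with any of the 6 libraries left out (edgeR adjusted p 0.00880 to 0.0380), and was lost when replicate 1 of both genotypes was left out together (0.62, edgeR adjusted p = 0.0785). Relative to the pan-macrophage markers of its own library, Ebi3 differed between the genotypes by 0.07 ± 0.13 log2 units (SE, exact permutation p = 0.6).

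Of the 10 genes, 4 had a window in the RefSeq promoter table of GRCm38.p6. The windows of Ebi3 and Il12a are shown because Ebi3 was the called ligand subunit and Il12a has a pair of RefSeq starts, with no signal assigned to the transcript from the upstream one. Each holds the 250 bases before a start, 5′ to 3′ on the plus strand, and capitals mark matches to the kappaB pattern (GGG, any 5 bases, CC), searched on both strands. The Ebi3 window lies at chr17:55952373-55952622, and the Il12a windows at chr3:68690394-68690643, before the start of Il12a-201, and chr3:68691174-68691423, before that of Il12a-202.
Ebi3: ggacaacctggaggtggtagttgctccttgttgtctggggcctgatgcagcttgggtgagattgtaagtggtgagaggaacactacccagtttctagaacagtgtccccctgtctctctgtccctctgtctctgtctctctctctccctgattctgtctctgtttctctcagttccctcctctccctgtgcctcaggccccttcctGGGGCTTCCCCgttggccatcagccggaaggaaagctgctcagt
Il12a upstream start: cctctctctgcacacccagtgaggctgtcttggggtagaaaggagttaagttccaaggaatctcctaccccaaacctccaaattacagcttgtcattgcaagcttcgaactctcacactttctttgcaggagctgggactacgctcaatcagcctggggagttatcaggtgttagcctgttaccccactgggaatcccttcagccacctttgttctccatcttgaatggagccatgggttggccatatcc
Il12a downstream start: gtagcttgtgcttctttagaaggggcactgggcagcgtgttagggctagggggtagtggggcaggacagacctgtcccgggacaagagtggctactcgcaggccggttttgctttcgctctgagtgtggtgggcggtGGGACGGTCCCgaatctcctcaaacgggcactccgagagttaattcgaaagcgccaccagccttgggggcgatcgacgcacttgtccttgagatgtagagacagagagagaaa
The Ebi3 window held 2 overlapping kappaB matches, the first 44 bases before the start, and the downstream Il12a window 2 overlapping matches, the first 113 bases before its start. The upstream Il12a window and that of Il12b held none. This pattern was found in 45.8% of 32851 windows of the same length, so its presence is common. None of the 3 printed windows held the patterns searched for interferon response elements (ISRE: GAAA, any 2 bases, GAAA; in 2.98% of windows), STAT sites (GAS, TTCNNNGAA, 7.02%), AP-1 (TGANTCA, 6.75%) or the PU.1 core (GAGGAAG, 10.6%). The Ebi3 and upstream Il12a windows held 2 CpG each and the downstream Il12a window 15, against a median of 6 over all windows. A match or its absence describes these letters only.

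Il27 (ENSMUSG00000044701.5; chromosome 7, 126589010 to 126594941, minus strand), the dedicated subunit of IL-27, stood at 5.19, 5.26 and 2.25 TPM in the Tet2 KO libraries, against 2.84, 2.90 and 2.02 TPM in Tet2 WT. The first 2 Tet2 KO libraries were the highest of the 6, and Tet2 KO replicate 3 lay among the Tet2 WT libraries. The log2 fold change was 0.87 ± 0.43 (SE; 95% interval -0.09 to 1.83; edgeR adjusted p = 0.221), as large as that of Il10ra but with a wider spread. The ratio of Ebi3 to Il27 in TPM was 14.0, 10.7 and 25.9 in Tet2 KO and 13.8, 15.5 and 19.2 in Tet2 WT, and overlapped between the genotypes (difference in log2 ratio -0.01, exact permutation p = 1). The end of Il27 overlaps Apobr (chromosome 7, 126584942 to 126589112), which lies on the opposite strand and stood at 8.39, 12.1 and 10.4 TPM in Tet2 KO, against 7.11, 8.12 and 8.71 TPM in Tet2 WT. The use of strand in counting is not stated, so reads from that overlap cannot be assigned with certainty.

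Il12a (ENSMUSG00000027776.12; chromosome 3, 68690644 to 68698547, plus strand), the subunit shared by IL-12 and IL-35, stood at 0.367, 0.109 and 0.690 TPM in the Tet2 KO libraries, against 2.28, 2.21 and 1.05 TPM in Tet2 WT. All Tet2 KO libraries lay below all Tet2 WT libraries, on counts of 10, 5 and 24 in Tet2 KO and 64, 77 and 26 in Tet2 WT. It had the lowest log2 fold change of the 9 tested genes, -1.86 ± 0.69 (SE; 95% interval -3.40 to -0.32), and did not pass the test (edgeR adjusted p = 0.101). With limma on log2(TPM + 1) the log2 fold change was -1.03 (adjusted p = 0.0146). Under scaling to the macrophage markers it was -2.57 (edgeR adjusted p = 0.0141). The fibroblast marker sums given above lay on the same sides, and with them as a covariate the log2 fold change was -0.62 (edgeR adjusted p = 0.937). Within Tet2 WT, Il12a was highest in CPM in replicate 2, which had the lowest fibroblast sum of that genotype. In TPM it was highest in replicate 1, which had the highest fibroblast sum.

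The ratio of Ebi3 to Il12a in TPM, the subunits of IL-35, was 199, 513 and 84.3 in Tet2 KO and 17.2, 20.3 and 36.8 in Tet2 WT. The genotypes did not overlap. The difference in log2 ratio was 2.72 with 0.1 TPM added to each gene and 1.61 with 1 TPM added, and the exact permutation p was 0.1, the smallest possible, with 0.1 TPM added.

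The remaining subunits were near the limit of detection. Il12b (ENSMUSG00000004296.14; chromosome 11, 44400063 to 44414033, plus strand), the subunit shared by IL-12 and IL-23, had estimated counts of 0, 17 and 0 in Tet2 KO and 7, 13 and 0 in Tet2 WT, which is 0, 0.235 and 0 TPM in Tet2 KO, against 0.106, 0.190 and 0 TPM in Tet2 WT. The low-count filter removed it, and each genotype had libraries with and without counts. A count of 0 allows up to 3 counts, or 0.0541 to 0.0809 CPM in the libraries at 0 (counting error only). Without the filter the edgeR log2 fold change was -0.12, with an adjusted p of 0.980.

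Il23a (ENSMUSG00000025383.2; chromosome 10, 128296139 to 128298752, minus strand), the dedicated subunit of IL-23, stood at 0.215, 0.494 and 0.191 TPM in the Tet2 KO libraries, against 0.259, 0.452 and 0.876 TPM in Tet2 WT. The genotypes overlapped, on counts of 9, 31 and 12 in Tet2 KO and 15, 27 and 50 in Tet2 WT. The log2 fold change was -0.62 ± 0.66 (SE; edgeR adjusted p = 0.603) and -0.06 without Tet2 WT replicate 3, the library with the highest level. The ratios of Il12b to Il12a and of Il12b to Il23a rest on an Il12b at 0 in 3 of the 6 libraries, and differed in log2 by 1.84 (exact permutation p = 0.1) and 0.33 (exact permutation p = 0.9). Where Il12b is at 0 the ratio reflects the added 0.1 TPM and the other gene. The Il12b to Il12a difference was 1.02 on estimated counts (exact permutation p = 0.8) and 0.75 without Tet2 KO replicate 2. The Il12b to Il23a difference was -0.32 on estimated counts and -0.47 without Tet2 WT replicate 3. No direction is drawn from either ratio.

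**Figure D3:**
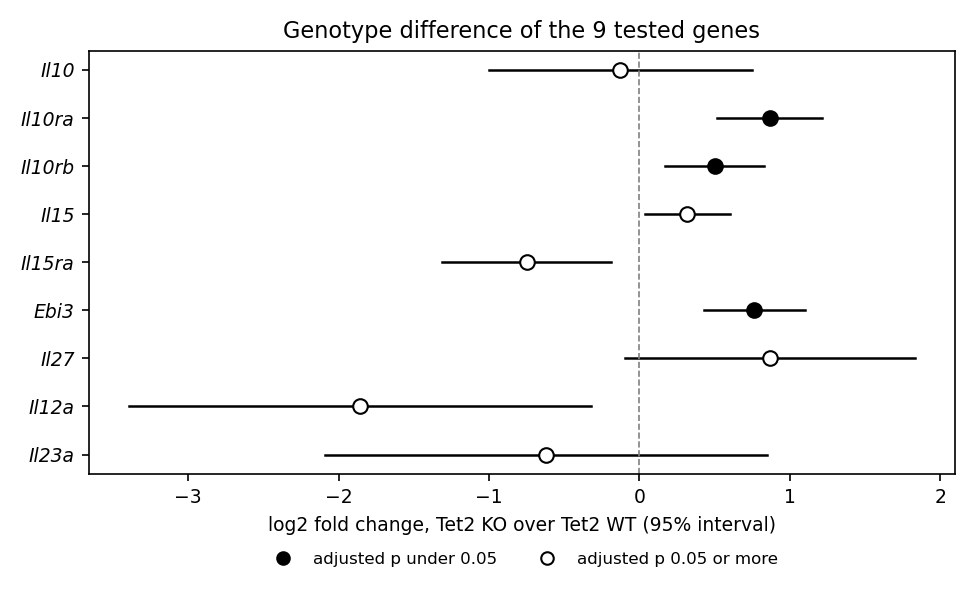
The edgeR log2 fold change of the 9 tested genes, Tet2 KO over Tet2 WT, with its 95% interval (horizontal axis), and filled points for an adjusted p under 0.05. The filled points are Il10ra at 0.87, Il10rb at 0.50 and Ebi3 at 0.76, and the widest interval is that of Il12a, from -3.40 to -0.32. Scaled to pan-macrophage markers, Il10rb was at -0.20.

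Measured from their own library's pan-macrophage markers, 4 of the 9 tested genes (44.4%) were lower in every Tet2 KO library than in any Tet2 WT library. This held for 66.6% of all 16386 tested genes, whose median difference was -0.67 log2 units, so lower values on this scale were common. The difference, Tet2 KO minus Tet2 WT, was -1.55 ± 0.36 log2 units for Il12a, -1.40 ± 0.39 for Il15ra, -0.89 ± 0.31 for Il23a and -0.37 ± 0.11 for Il15 (SE, exact permutation p = 0.1 for each, the smallest possible). That of Il15 was smaller in size than the median over all genes. Il23a (0.217 to 0.981 CPM per library total) and Il12a (0.0939 to 1.45) lay near the 0.5 CPM added. The constant draws such low values together, and their difference on this scale also holds the shift of the markers. In the edgeR fit scaled to these markers the log2 fold changes were larger in size, at -2.57 for Il12a and -1.26 for Il23a. On log2(TPM + 0.1) the separation of Il23a (-1.14) and Il15 (-0.38) was lost, each with an exact permutation p of 0.2. The libraries overlapped for the other 6 genes of the list. Their differences ran from -0.66 ± 0.48 for Il10 (SE, exact permutation p = 0.4) to 0.19 ± 0.10 for Il10ra, and none was higher in all Tet2 KO libraries.

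**Figure D4:**
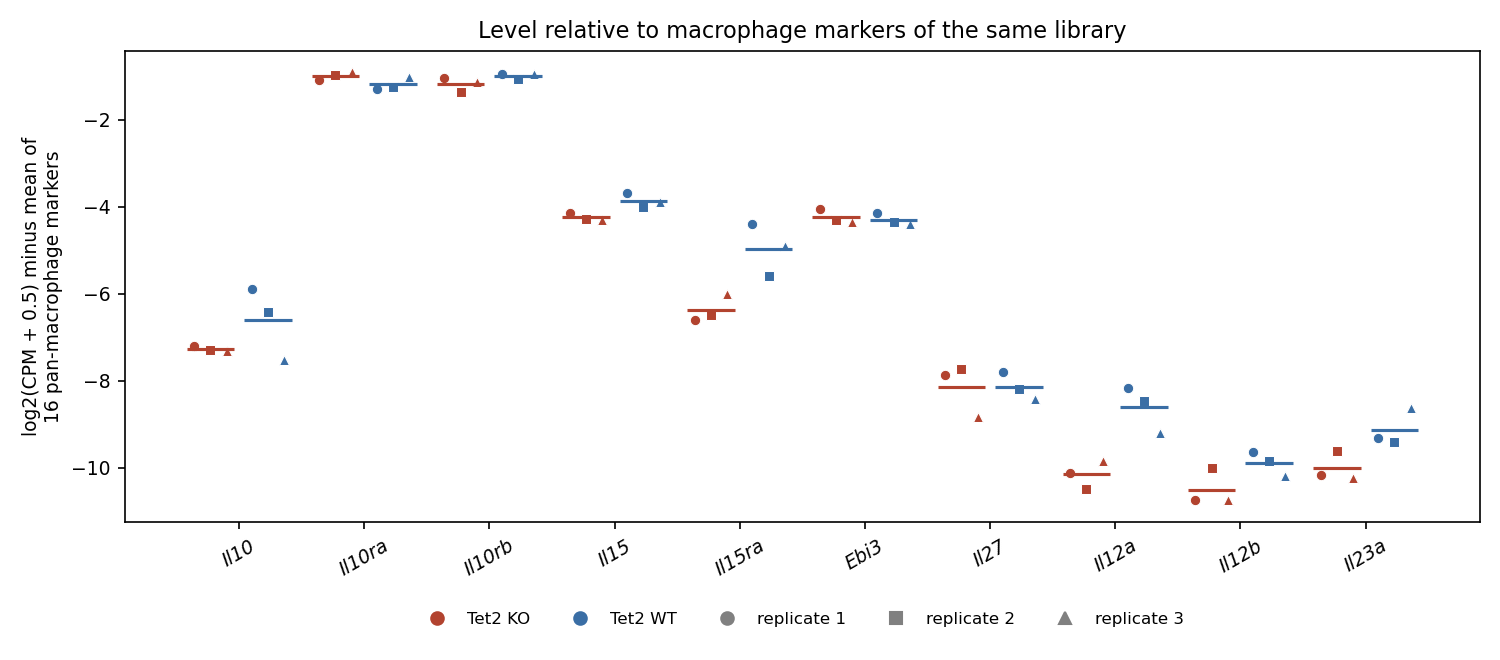
Level of each gene relative to macrophage markers, as log2(CPM + 0.5) minus the mean of the same over 16 pan-macrophage markers of that library (vertical axis), with a point for each library and a bar at the mean of the genotype. Ebi3, Il10ra and Il10rb overlap between the genotypes on this scale, while Il15, Il15ra, Il12a and Il23a lie lower in the 3 Tet2 KO libraries, as did 66.6% of all tested genes.

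The annotation lists 49 transcripts of these genes, and 19 of them made up at least 10% of their gene's mean TPM in either genotype. Of 30 transcripts that could be tested, 1 was called, Il10ra-201, where 2.66% of all tested transcripts were called. Il10ra-201, the main coding transcript of the binding chain, stood at 150, 143 and 165 TPM in the Tet2 KO libraries, against 69.8, 99.5 and 101 TPM in Tet2 WT. The genotypes did not overlap (log2 fold change 0.89 ± 0.16, SE; edgeR adjusted p = 0.0350), but the call was lost with any 1 library left out (edgeR adjusted p 0.0598 to 0.122) and with the replicate number as a block (0.0947). Ebi3 has a single listed transcript and thus the same counts at both levels. Its log2 fold change over 53249 tested transcripts was 0.73 ± 0.16 (SE), with an edgeR adjusted p of 0.0611. Protein-coding transcripts held 83.1% to 90.6% of Il10ra, 87.4% to 89.7% of Il10rb, 46.1% to 55.8% of Il15 and 44.5% to 58.9% of Il15ra in TPM across the 6 libraries. The most abundant Il15ra transcript, the coding Il15ra-210, stood at 2.94, 2.64 and 2.74 TPM in the Tet2 KO libraries, against 5.56, 4.25 and 5.31 TPM in Tet2 WT. The genotypes did not overlap, at a log2 fold change of -0.73 ± 0.25 (SE; edgeR adjusted p = 0.207).

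Most of the Il23a signal, and a large share of that of Il12a, was assigned to transcripts annotated with a retained intron, which do not encode the cytokine subunit. Il23a-202, of this type, held 92.3% of the Il23a TPM in Tet2 KO and 94.2% in Tet2 WT, while the coding Il23a-201 was above 0 only in replicate 2 of each genotype. Il12a-203, also of this type, stood at 0.0533, 0 and 0.268 TPM in the Tet2 KO libraries, against 1.14, 0.826 and 0.707 TPM in Tet2 WT. The coding Il12a-202 stood at 0.174, 0.109 and 0.240 TPM in the Tet2 KO libraries, against 0.552, 1.25 and 0.345 TPM in Tet2 WT, and Il12a-201, from the upstream start, was at 0 in every library. Il12a-202 and Il12a-203 were thus lower in each Tet2 KO library than in each Tet2 WT library, with edgeR adjusted p of 0.299 for Il12a-202 and 0.333 for Il12a-203. The intron sequences that these transcripts keep are shown as the 60 bases across the first exon-intron boundary of Il23a-202 (chr10:128297781-128297840, minus strand) and across the intron-exon boundary of Il12a-203 (chr3:68694131-68694190, plus strand), from the GENCODE M21 transcripts on GRCm38, 5′ to 3′. Capitals mark the bases that are intron in the coding transcript.
Il23a-202: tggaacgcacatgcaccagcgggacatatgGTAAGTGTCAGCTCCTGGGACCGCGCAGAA
Il12a-203: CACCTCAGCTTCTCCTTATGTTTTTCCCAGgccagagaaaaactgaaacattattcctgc
The retained Il23a intron spans 128297592 to 128297810 of chromosome 10 (219 bases). Il23a-202 also starts 668 bases upstream of the coding Il23a-201, so reads from that stretch can be assigned to it as well. The intron part of Il12a-203 spans 68693993 to 68694160 of chromosome 3 (168 bases). Which of these stretches the reads came from, and whether from unspliced RNA, was not tested.

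Around these genes, 43 further genes of the same pathways were examined, of which 35 could be tested. Of these 9 (25.7%) were called higher, 1 (2.9%) lower and 25 neither, against 6.11% and 10.1% of all tested genes, and their median log2 fold change was 0.34. The macrophage and fibroblast marker sums differed between the same libraries in the same way as given above. Scaled to the pan-macrophage markers, 0 of the 35 were called higher and 7 lower (20%), against 0.116% and 42.0% of all tested genes.

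Among 7 further receptor chains, 6 could be tested. Il2rg, the common gamma chain that completes the IL-15 receptor, stood at 243, 194 and 188 CPM in the Tet2 KO libraries, against 87.7, 122 and 96.2 CPM in Tet2 WT (log2 fold change 1.03 ± 0.16, SE; edgeR adjusted p = 0.00241). All Tet2 KO libraries were higher. Il6st, the gp130 chain used by IL-27, IL-35 and IL-6, stood at 77.2, 75.4 and 96.9 CPM in the Tet2 KO libraries, against 229, 142 and 180 CPM in Tet2 WT (-1.14 ± 0.19, SE; edgeR adjusted p = 0.00300), and was lower in all Tet2 KO libraries. Its order within Tet2 WT was that of the fibroblast marker sum, whereas within Tet2 KO it was highest in replicate 3 and the fibroblast sum in replicate 1. With that sum as a covariate the log2 value was 0.18 (edgeR adjusted p = 0.919). Il12rb2 (0.93 ± 0.54), Il2rb (-0.73 ± 0.49), Il27ra (-0.19 ± 0.18) and Il12rb1 (0.23 ± 0.74; log2 fold change ± SE) were not called, and Il23r, the dedicated IL-23 receptor chain, was at most 0.108 CPM. Il2rb, the signalling chain that IL-15 needs beside Il2rg, was at 0.460 to 0.836 CPM in Tet2 KO and 0.820 to 1.29 CPM in Tet2 WT.

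Of 8 kinases and STAT factors, 2 were called higher. Stat4, which carries IL-12 signals, stood at 37.1, 26.7 and 24.9 CPM in the Tet2 KO libraries, against 15.5, 13.7 and 11.02 CPM in Tet2 WT (log2 fold change 1.14 ± 0.20, SE; edgeR adjusted p = 0.00478). Jak3, the kinase bound to the common gamma chain, differed by 0.89 ± 0.18 (SE; edgeR adjusted p = 0.00918). Both calls were kept with any library left out. Tyk2, a kinase of the IL-10 and IL-12 receptors, was not called (0.43 ± 0.13, SE; edgeR adjusted p = 0.0603), nor were Stat5a (0.40 ± 0.14; 0.0952) and Stat5b (0.20 ± 0.12; 0.335), the factors below the IL-15 receptor. Jak1, Jak2 and Stat3, which transmit the IL-10 or IL-12 signal, had log2 fold changes of -0.05 to 0.17 and were not called.

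Of 8 genes known to respond to IL-10 in macrophages, 2 were called higher. Il4ra, the IL-4 receptor chain, stood at 183, 208 and 180 CPM in the Tet2 KO libraries, against 112, 121 and 151 CPM in Tet2 WT (0.57 ± 0.14, SE; edgeR adjusted p = 0.0246), with a log2 fold change of -0.12 when scaled to the pan-macrophage markers. Il1rn, the IL-1 receptor antagonist, stood at 42.0, 61.9 and 42.3 CPM in the Tet2 KO libraries, against 16.1, 35.3 and 24.8 CPM in Tet2 WT (0.94 ± 0.28, SE; edgeR adjusted p = 0.0496). All Tet2 KO libraries were higher for both genes. Il4ra missed the threshold without Tet2 KO replicate 3 (edgeR adjusted p = 0.0639), without Tet2 WT replicate 1 (0.102) and without Tet2 WT replicate 2 (0.0717), and the Il1rn call was kept only without Tet2 WT replicate 2, with edgeR adjusted p of 0.0719 to 0.121 when another library was left out. Il1rn also missed the threshold with upper-quartile scaling (edgeR adjusted p = 0.0560), the stricter low-count filter (0.0557) and no filter (0.0762). Zfp36, which promotes decay of cytokine mRNA (0.52 ± 0.19, SE), Bcl3, an NF-kB cofactor (0.44 ± 0.18), and Socs3, the feedback inhibitor that IL-10 induces (0.33 ± 0.16), were not called, with edgeR adjusted p of 0.101, 0.144 and 0.215. The other 3, Etv3, Sbno2 and Nfil3, ranged from -0.01 to 0.27.

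Of 12 transcription factors that act on these cytokine genes, 4 were called higher. They were Prdm1, a repressor (0.97 ± 0.15, SE; edgeR adjusted p = 0.00242), Irf5, an activator of IL-12 family genes (0.77 ± 0.15; 0.00758), Spi1, the macrophage lineage factor PU.1 (0.74 ± 0.14; 0.00600), and Irf8, which acts on Il12b (0.64 ± 0.15; 0.0177). All 3 Tet2 KO libraries lay above all Tet2 WT libraries for each. Irf8 missed the threshold without Tet2 KO replicate 1 (edgeR adjusted p = 0.0533), without Tet2 WT replicate 1 (0.0710) and without Tet2 WT replicate 3 (0.0674), and under scaling to the macrophage markers the log2 value was -0.06. On that scale the log2 value was 0.083 for Irf5 (edgeR adjusted p = 0.652) and 0.055 for Spi1 (0.772). Without both replicates numbered 1, Irf5 (edgeR adjusted p = 0.0592) and Spi1 (0.0654) missed the threshold. Spi1 is also in the pan-macrophage list. Batf3, a factor of dendritic cells (0.66 ± 0.21, SE; edgeR adjusted p = 0.0635), Irf1 (0.47 ± 0.16; 0.0823) and the NF-kB subunit Rela (0.32 ± 0.12; 0.0973) were not called, and the remaining 5 had log2 fold changes of 0.19 to 1.04, the highest that of Cebpb. Dendritic cell markers, 9 in number, summed to 88.8 to 104 CPM in Tet2 KO and 74.7 to 84.8 CPM in Tet2 WT, most of it Cd209a, with 1 called higher, 1 lower and none at 0 in every library. Their part in these results was not tested.

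**Figure D5:**
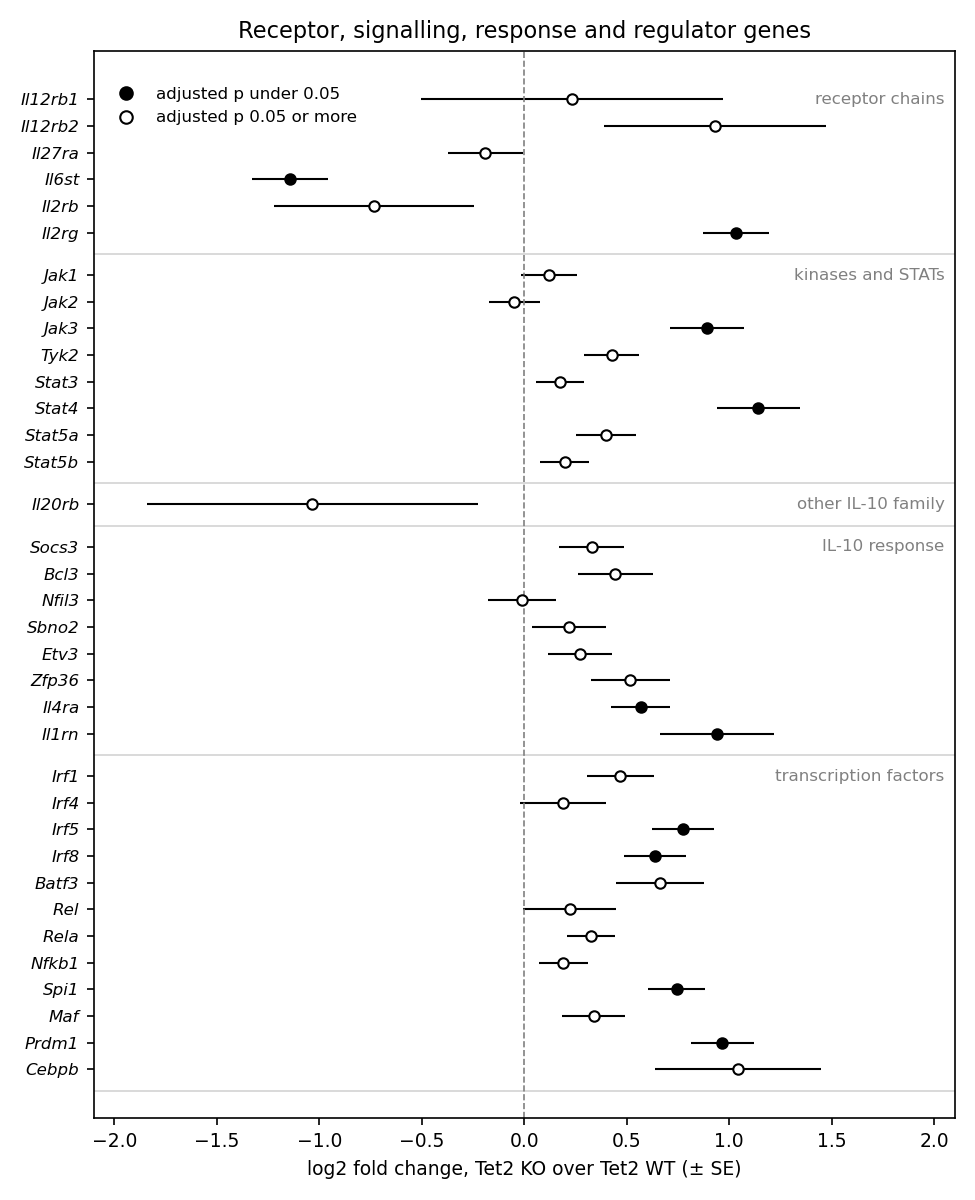
The edgeR log2 fold change, Tet2 KO over Tet2 WT, of the 35 tested pathway genes with its SE (horizontal axis), by list, and filled points for an adjusted p under 0.05. Of the 10 filled points 9 lie above 0, and Il6st at -1.14 lies below, while Il4ra and Irf8 were below 0 when scaled to pan-macrophage markers.

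The other members of the IL-10 family were nearly absent from these macrophage libraries. Il22, Il24 and Il20ra were at 0 in all 6 libraries, and Il19, Il20, Il22ra1 and Il22ra2 did not pass the low-count filter. Il20rb, a receptor chain for IL-19, IL-20 and IL-24, was the only one of the 8 that could be tested (-1.03 ± 0.81, SE; edgeR adjusted p = 0.461), at 0.144 to 1.34 CPM in Tet2 KO and 0.626 to 3.45 CPM in Tet2 WT.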

How the data were processed

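RNA of 6 libraries, 3 Tet2 KO and 3 Tet2 WT, was analysed. Per the submitters' processing notes, the authors trimmed reads with Trim Galore 0.6.4 and assigned them with kallisto 0.44.0 to the mouse transcriptome (GRCm38). The deposited values, per the file headers, are an estimated count per transcript, not normalized, and a TPM value, scaled per effective length and library. The annotation release and the use of strand are not given in the sources used here. kallisto divides shared reads by a model, and the p-values leave out that uncertainty.

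Of 118783 transcripts, 116622 (98.2%) matched GENCODE M21 by their identifiers (version dropped), 99.8% of them at equal length. The other 2161 held at most 0.671% of a library's counts and were left out. Estimated counts were summed over 35865 genes, rounded and tested with edgeR 4.0.16 (R 4.3.3; expression filter with a minimum count of 10, TMM, robust quasi-likelihood test, p-values adjusted by Benjamini-Hochberg over the 16386 tested genes). Calls used an adjusted p under 0.05. Transcripts were tested likewise. Fold changes are Tet2 KO over Tet2 WT. Ratios and levels relative to markers were compared by exact two-sided permutation tests over 20 assignments (scipy 1.17.1), whose smallest p is 0.1. The fitting was tested on simulated data with 200 changed genes. The libraries of a genotype differed beyond sampling noise.

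The 10 genes, the pathway and marker lists and the alternatives were chosen with earlier results of these data known. From these lists 1 pathway gene and 1 marker are not reported here and were left out of the counts. All 10 were described, and of the pathway genes every called one and up to 3 others per list by smallest p, while Il12rb1, Etv3, Sbno2, Nfil3, Jak1, Jak2, Stat3 and Cebpb were named after their values were seen. The alternatives were RLE and upper-quartile scaling, scaling to the pan-macrophage markers, other low-count filters, the replicate number as a block, a fibroblast covariate, DESeq2 1.42.0, limma 3.58.1 on voom and on log2 TPM values, length-scaled TPM counts, other pseudocounts, and each library or both replicates numbered 1 left out.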

Additional observations from a re-analysis of the deposited data

How the results depend on the processing

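Under RLE and upper-quartile scaling and the stricter filter, no gene of the 10 that was tested changed its call, but the pathway gene Il1rn lost its call under upper-quartile scaling (adjusted p = 0.0560), the stricter filter (0.0557) and no filter (0.0762). Scaled to the pan-macrophage markers, which moved the median of all genes to -0.69, 6900 genes were called, 19 higher and 6881 lower, with 0 and 2 of the list and 0 and 7 pathway genes. The log2 fold changes were then 0.064 for Ebi3, 0.19 for Il10ra, -0.20 for Il10rb, -0.38 for Il15, -2.57 for Il12a, -1.49 for Il15ra, -0.12 for Il4ra and -0.059 for Irf8. With the fibroblast covariate edgeR called 0 genes, 1503 at an unadjusted p under 0.05, hence 0 list and 0 pathway genes in either direction. The values were then 0.66 for Ebi3, 0.32 for Il10ra, 0.59 for Il10rb, -0.29 for Il27, 0.80 for Il15ra, 0.18 for Il6st and -1.54 for Il1rn. Without both replicates numbered 1, 1188 genes were called, 177 higher and 1011 lower, with 1 list and 4 pathway genes higher; Ebi3 was 0.62, Il10rb 0.33 and Il10 0.076. Il10 was 0.026 with voom. Il10rb was 0.48 with length-scaled TPM counts (adjusted p = 0.0580). With limma on log2(TPM + 1) or log2(TPM + 0.1), 384 or 400 of 16386 genes were called higher and 1930 or 1922 lower. The median of all genes was then -0.093 or -0.147. In each of these fits 2 list genes were called lower and 5 pathway genes higher. Il10rb was 0.34 in both, Il12a -1.03 or -2.12 and Il15ra -0.88 or -0.94. With no filter or DESeq2, 1 list gene was called lower, Il15ra, at -0.75 in both. Over all genes, 1680 of 25780 were called lower with no filter and 2007 of 16386 with DESeq2. The Ebi3 to Il12a log2 ratio differed by 1.61 with a pseudocount of 1, and Il12a relative to macrophage markers by -2.65 on log2(TPM + 0.1). The causes were not tested.

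With each library left out in turn, 1382 to 3141 genes were called, 350 to 1402 higher and 1032 to 1739 lower, with 2 to 3 list genes higher, 0 to 1 lower, 6 to 13 pathway genes higher and 1 lower. The lowest all-gene count came without Tet2 WT replicate 1. Log2 fold changes ranged from 0.65 to 0.87 for Ebi3, 0.74 to 0.96 for Il10ra, 0.42 to 0.60 for Il10rb, -0.97 to -0.55 for Il15ra, -0.47 to 0.14 for Il10, -2.44 to -1.44 for Il12a, 0.65 to 1.18 for Il27, -1.20 to -0.06 for Il23a and 0.26 to 0.37 for Il15. The transcript of Il10 ranged from -0.53 to 0.092 and a coding Il15 transcript of 1251 bases from -0.31 to 0.21, both crossing 0.

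With the replicate number as a block, Il10rb was 0.50 (edgeR adjusted p = 0.0983) and Il10 0.017; the other list genes kept their calls. Same-numbered libraries correlated at 0.06, 0.13 and 0.04 in their deviations, and every library correlated best with its own number, a hint from the data and not the design. Depth limits Il12a, Il12b and Il23a, whose counts were 0 to 77 per library.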
